A study of Homo sapiens with 4 samples.

Results

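N6-methyladenosine (m6A) peaks that lay in coding sequence and in 1 uninterrupted exon block were taken from the peak lists of A549/DDP and A549. A peak was counted once per position, strand and set of blocks. It was taken if all its rows in its list were labelled coding sequence, with no UTR on any listed transcript, and if it had 1 block, so that it crossed no exon junction. There were 5923 such peaks among the 32069 distinct peaks of A549/DDP and 4910 among the 27319 of A549, or 10833 of 59388 over both lists. The labels and blocks alone chose them, and neither fold nor p took part.

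A549, an established line from a human lung adenocarcinoma, is labelled cisplatin-sensitive, and A549/DDP is labelled cisplatin-resistant. Both lines were grown in the same serum-containing medium per the labels, which name no drug in the culture and do not say how the resistant line was made. Each line gave 1 library of RNA fragments pulled down with an m6A antibody and 1 input library, 4 in all, and each line has 1 peak list. With 1 library of each kind per line, differences between the lines have no replicate check, and none was tested. Fold enrichments and p-values are the authors' values per peak, the lists hold no read counts and the depth is unknown. Folds of the lines are therefore set side by side without a comparison of height, and a gene without a peak may be unmethylated or scarce, which cannot be told apart. Intervals are exact 95% binomial intervals (for medians, from order statistics) for counting error alone, and they are too narrow because overlapping peaks of a gene are not independent. Lung epithelial genes had a peak for 8 of 21 listed members in A549/DDP and 9 in A549, among them KRT7, KRT8, KRT18, FOXA1 and FOXA2 in both, while NKX2-1 and the surfactant genes had none. Of 16 markers of other cell types, CD68 and COL1A1 had a peak in each list.

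m6A is written on nascent transcripts by a methyltransferase complex around METTL3 and METTL14 and is erased by the demethylases ALKBH5 and FTO. Reader proteins of the YTH family bind it and are known for their part in mRNA decay and translation. In human cells the mark is known to be dense near stop codons and in unusually long internal exons, and sparse close to exon junctions. A peak that stays inside 1 coding exon is thus the class that can show the mark inside such long exons.

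Single-block coding peaks were as frequent as junction-spanning coding peaks but much weaker by p. Their share of all distinct peaks was 18.5% in A549/DDP (18 to 18.9) and 18% in A549 (17.5 to 18.4). Coding peaks with several blocks made up 18.2% and 18.3%, and peaks across coding sequence and 3′ UTR 19.4% and 22.4%. Single-block coding peaks had a median p of 3.80e-05 (A549/DDP) and 6.76e-05 (A549), compared with 1.51e-09 and 1.00e-07 for several-block coding peaks and 5.13e-08 and 9.12e-08 for all distinct peaks. Peaks with a p below the median of their list are called strong from here on. Of single-block coding peaks, 25.5% were strong in A549/DDP (24.4 to 26.7) and 22.7% in A549 (21.5 to 23.9), against a background of 49.9% and 50% of all distinct peaks.

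Their folds did not follow their p. The median fold was 3.98 in A549/DDP (3.91 to 4.04) and 4.28 in A549 (4.13 to 4.37). It lay above that of several-block coding peaks (3.1 and 2.95) and of all peaks (3.81 and 3.72). Coding and 3′ UTR peaks had 4.2 and 3.96, 5′ UTR and coding peaks 5.42 and 4.24, and 3′ UTR peaks 3.48 and 3.63. Peaks of the 5′ UTR had 5.57 and 5.51 at a median p of 3.80e-05 and 8.23e-05. A weak p with a high fold was thus not particular to single-block coding peaks. A fold of at least 5 was reached by 37.3% of single-block coding peaks in A549/DDP and 40.7% in A549. The background over all distinct peaks was 34.9% and 33.9%, and coding and 3′ UTR peaks had 38.9% and 36.4%. Single-block coding peaks were short: their median length was 179 bases (A549/DDP) and 151 (A549), compared with 267 and 240 for several-block coding peaks. Over all distinct peaks it was 211 and 210, for 3′ UTR peaks 180 in each list and for 5′ UTR peaks 150. Peaks of at most 91 bases made up 27.1% and 29.6% of single-block coding peaks. Under 100 bases the shares were again 27.1% and 29.6%, against 15.9% and 15.7% of all distinct peaks. Lengths fell on a grid, and 87% of single-block coding peaks in each list were within 1 base of a multiple of 30. That share was 73.6% and 72.7% over all distinct peaks.

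**Figure D1:**
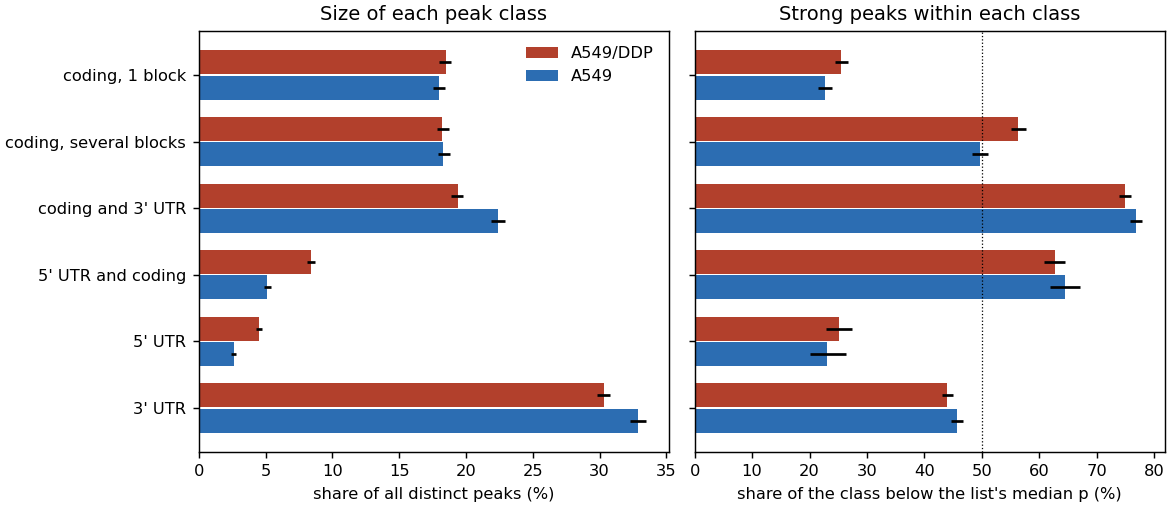
Left, share of all distinct peaks in each transcript class (percent); right, share of each class with a p below the median of its list (percent, dotted line at 50). Bars are 1 value per list and error bars exact 95% binomial intervals; single-block coding peaks make up 18.5% and 18% of the lists, and 25.5% and 22.7% of them are strong.

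Length and strength went together within the class. In A549/DDP the 1607 single-block coding peaks under 100 bases had a median fold of 3.13 and a median p of 9.33e-04, and the 709 peaks of 400 bases or more had 5.68 and 7.94e-17. In A549 the 1452 short peaks had 3.47 and 0.00102, and the 558 long ones 6.09 and 5.66e-14. All distinct peaks had the same order, with 2.87 and 6.92e-04 for short and 5.51 and 3.16e-29 for long ones in A549/DDP. The values in A549 were 2.99 and 8.13e-04, and 5.11 and 1.58e-24. Many weak peaks had identical values. The most frequent pair, a fold of 12.9 with an authors' value of 0.00132 for p, was listed for 55 A549/DDP peaks of 41 genes. In A549 a fold of 12.4 with 9.55e-04 was listed for 72 peaks of 39 genes.

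The peaks fell into 2598 merged regions in A549/DDP and 2159 in A549, with a median of 2 peaks a region. SOGA2 had the most peaks in A549/DDP (31) and PLEC, which encodes the cytoskeletal linker plectin, the most in A549 (34). Most of the class stood apart from other peaks of the same list: 79.4% of the A549/DDP peaks and 78.1% of the A549 peaks shared no base with a peak of another class. Where bases were shared, it was most often with a several-block coding peak, for 520 and 553 peaks.

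At the level of genes, 1950 A549/DDP genes and 1647 A549 genes had a single-block coding peak, which was 27.7% and 25.5% of the genes with any peak. Of these genes 78.6% and 78.3% had a single merged region, and 7.08% and 5.65% had 3 or more. In 28.6% (557 genes) and 27.8% (458 genes) it was the only class of peak the gene had. Genes with a single-block coding peak had long transcripts. Their longest listed transcript had a median of 4126 bases (A549/DDP) and 3961 (A549), compared with 3444 and 3094 for genes with a several-block coding peak and none in 1 block, and 3272 and 3157 for all genes with a peak. Genes with both kinds of coding peak, 505 and 464, count on the single-block side alone, so that split is uneven.

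Chromosomes differed in how many of their peaks were of this class. The share was low on chromosome 19 (13.9% in A549/DDP and 12.4% in A549) and similarly low on chromosome 21 (13% and 14.2%), chromosome 11 (14.5% and 15.2%) and chromosome 17 (14.8% and 15%). It was high on chromosome 13 (30.6% and 27.5%), chromosome 18 (29.9% and 26%) and chromosome 6 (28.3% and 26.5%). On the mitochondrial genome, whose genes have no introns, 11 of 15 and 8 of 13 peaks were single-block coding peaks. Their folds had a median of 9.49 in A549/DDP and 8.66 in A549 and reached 127 and 57.4. Nuclear copies of mitochondrial sequence make the assignment of such reads uncertain.

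Long single-block peaks marked a small set of genes with very large coding exons. A peak of over 1000 bases was found in 26 genes in A549/DDP and 18 in A549, with 11 genes in both. The longest lay in ANKRD11, which encodes a chromatin regulator of the ankyrin repeat family. It covered 4071 bases in A549/DDP (chromosome 16, 89347941 to 89352011, fold 8.33) and 4041 in A549 (89347911 to 89351951, fold 8.51). AKAP12, a scaffold protein gene for protein kinase A, followed with 3868 bases in A549/DDP (chromosome 6, 151669848 to 151673715, fold 5.43) and 3413 in A549 (151670187 to 151673599, fold 4.53). EVPL, which encodes the epithelial envelope protein envoplakin, had 2544 bases (chromosome 17, 74004059 to 74006602, fold 9.68) and 2514 (to 74006572, fold 9.03). These 3 genes carried a continuous long peak in both lists.

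In other genes the same stretch was broken up differently. MKI67, the gene of the proliferation marker Ki-67, had 4 merged regions in each list. In A549/DDP the longest was a run of 3239 bases (chromosome 10, 129904304 to 129907542), where A549 had 3 separate regions of 602, 961 and 902 bases. The neighbouring region was alike in both lists, 2100 bases in A549/DDP (129901907 to 129904006) and 2010 in A549 (129901967 to 129903976). MAP1B, a microtubule-associated protein gene, showed the opposite, with 1 region of 1767 bases in A549 (chromosome 5, 71490771 to 71492537) where A549/DDP had regions of 878 and 570 bases. The longest peak of RBM12, an RNA-binding protein gene, was 1709 bases in A549/DDP (chromosome 20, 34241303 to 34243011) and 390 in A549. AHNAK, which encodes a giant scaffold protein, had 17 separate regions in A549/DDP between 62284695 and 62301504 on chromosome 11, with folds from 1.33 to 3.29 at their smallest p. A549 had 6 regions in the gene, between 62284246 and 62302614, and 5 of the 17 A549/DDP regions overlapped an A549 peak. GOLGB1, the gene of the Golgi protein giantin, had 6 regions in each list on chromosome 3, of 211 to 761 bases in A549/DDP and 90 to 248 in A549.

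**Figure D2:**
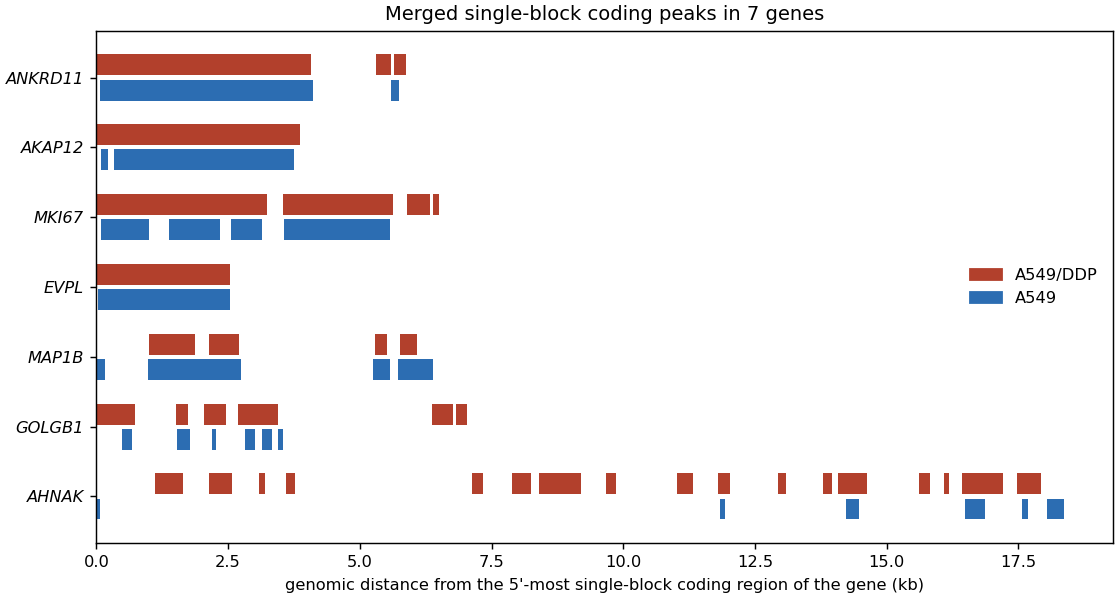
Merged single-block coding regions in 7 genes with large exons, as genomic distance in kilobases from the 5′-most region of the gene in the direction of transcription. Red bars are A549/DDP and blue bars A549, each a stretch covered by at least 1 single-block coding peak; ANKRD11, AKAP12 and EVPL carry a long stretch in both lists, while AHNAK has 17 regions in A549/DDP and 6 in A549.

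The comparison of the lines asked how far these peaks coincided. Sharing needed 1 or more exonic bases in common with any peak of the second list on that strand. This held for 2948 single-block coding peaks of A549/DDP (49.8%, 48.5 to 51.1) and 3526 of A549 (71.8%, 70.5 to 73.1). The background over all distinct peaks was 67.2% and 78%, so the class lay below it in both lists and further in A549/DDP. Several-block coding peaks were shared for 68% and 77.8%, and coding and 3′ UTR peaks for 86.2% and 89%. For 3′ UTR peaks the shares were 69.3% and 71.7%, and for 5′ UTR peaks 37.1% and 77.2%. A low share was thus not particular to single-block coding peaks in either list. The counterpart was itself a single-block coding peak for 41.9% of the A549/DDP peaks and 53% of the A549 peaks. Peaks whose counterparts were all of other classes numbered 465 in A549/DDP (7.85%) and 924 in A549 (18.8%).

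After the class itself, several-block coding peaks were overlapped most often. Of all the A549 single-block coding peaks, 785 (16%) overlapped a several-block coding peak of A549/DDP, 543 (11.1%) a coding and 3′ UTR peak and 275 (5.6%) a 5′ UTR and coding peak. In the other direction the numbers were 512 (8.64%), 299 (5.05%) and 159 (2.68%). For each of these classes the share was higher for A549 peaks than for A549/DDP peaks.

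Coincidence followed the authors' p closely. In A549/DDP the shared part went from 29.1% of the 2482 single-block coding peaks with a p of 0.0001 or above to 95.1% of the 409 peaks below 1e-20. In A549 it went from 57.4% of 2341 peaks to 96.4% of 220. At like p, the shares of single-block and several-block coding peaks of A549/DDP were close: 65.3% and 64.8% between 1e-10 and 1e-06, 46.7% and 43.2% between 1e-06 and 0.0001, and 29.1% and 33.3% above that. All distinct peaks of A549/DDP had higher shares in these classes of p, with 70.2%, 51.3% and 34.8%. In A549 the single-block peaks were shared more often than several-block peaks of like p between 1e-20 and 0.0001, with 76.2% (73.6 to 78.6) against 70.3% (67.5 to 73.1) between 1e-06 and 0.0001. From 1e-10 upward they also lay above all distinct peaks of A549. Their shares were 89.1%, 76.2% and 57.4% in the same classes of p, against 83.5%, 69.6% and 54.2%. Of single-block coding peaks 41.9% (A549/DDP) and 47.7% (A549) had a p of 0.0001 or above, compared with 23.7% and 25.3% of all distinct peaks. The part of p in the low overall share of the class was not tested.

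**Figure D3:**
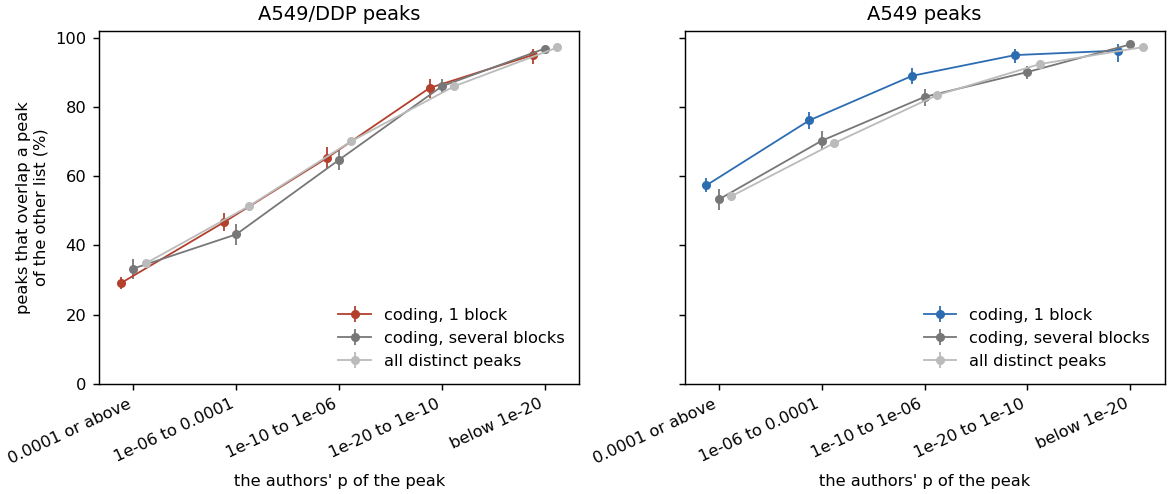
Share of peaks that overlap a peak of the other list (percent) against the class of the authors' p, for single-block coding peaks, several-block coding peaks and all distinct peaks of A549/DDP (left) and A549 (right). Points are 1 value per list and error bars exact 95% binomial intervals; single-block coding peaks go from 29.1% to 95.1% in A549/DDP and from 57.4% to 96.4% in A549.

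Length showed the same order. Of A549/DDP peaks of the class, 25.2% under 100 bases and 90.3% of those with 400 bases or more were shared, and of A549 peaks 50.8% and 95.2%. Over all distinct peaks the same shares were 33.7% and 95.1% in A549/DDP, and 48.9% and 96.2% in A549. Among weak peaks of the class, 38.6% of the A549/DDP peaks and 65.5% of the A549 peaks were shared. Of the shared weak peaks of the class, 49.4% in A549 had a strong counterpart in A549/DDP, and 26.2% in A549/DDP had one in A549. Such shares over all weak distinct peaks are not given, so these numbers cannot be read against a background.

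Where 2 single-block coding peaks of the lists overlapped, their ends rarely matched. With the best pair taken for each of 1021 merged A549/DDP regions, the overlap was a median 62.2% of the bases covered by either peak (quartiles 40.4 and 81.4). Both ends were the same in 71 pairs (6.95%), and 1 or both in 335 (32.8%). The median distance was 40 bases between starts and 41 between ends. The A549/DDP peak was the longer one in 578 pairs and the A549 peak in 336, with 107 of equal length. Across these pairs Spearman's rho was 0.60 for fold and 0.56 for length, as a description, since pairs share genes and lists share the 30-base grid.

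The 10 genes with the highest-ranking folds at overlapping sites had varied roles. First came MT-ND2, a mitochondrially encoded subunit of complex I, with a fold of 127 in A549/DDP and 57.4 in A549. WDR26, a subunit of the CTLH ubiquitin ligase, had folds of 52.8 (chromosome 1, 224621450 to 224621807) and 31.4 (224621539 to 224621807). Both inhibitory SMAD genes, which dampen BMP and TGF-beta signals, were among the first 10. SMAD6 had folds of 28.4 (chromosome 15, 66995701 to 66996208) and 32 (66995629 to 66996225), and SMAD7 34 (chromosome 18, 46476230 to 46476794) and 24 (46476289 to 46476794). In WDR26 and SMAD7 one end of the peak was the same base in both lists.

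HCN2, a pacemaker channel gene, had folds of 22.3 (chromosome 19, 590102 to 590491) and 27.3 (590102 to 590431). MEPCE, which caps 7SK RNA, had 16.8 (chromosome 7, 100027673 to 100028331) and 41.7 (100027673 to 100028899), where the A549 peak also covered a second A549/DDP region. FOXA1, a pioneer transcription factor of lung epithelium, had 32.8 (chromosome 14, 38060798 to 38061275) and 22.3 (38060769 to 38061305). The other genes of this set were KCTD1 (42.8 and 21.1, chromosome 18), the ubiquitin ligase gene RNF217 (19.2 and 20.7, chromosome 6) and the zinc finger gene ZNF865 (14 and 28.1, chromosome 19). ZNF865 had 3 single-block regions in each list, and every one overlapped a peak of the other list.

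**Figure D4:**
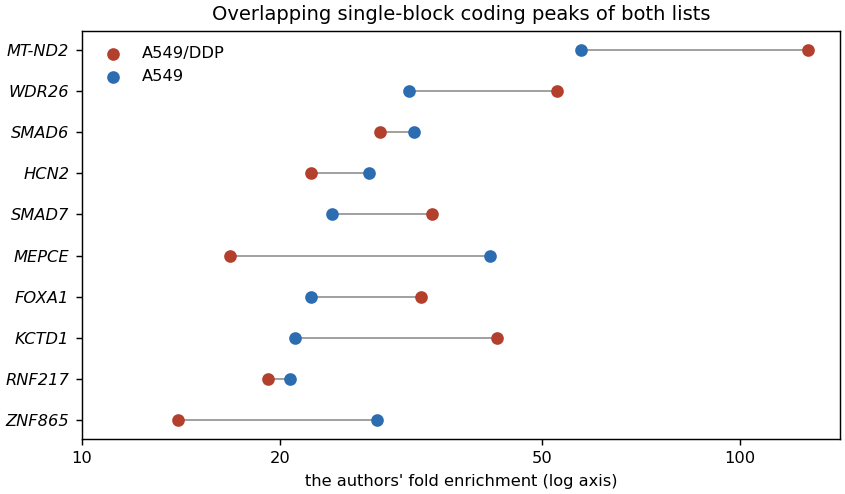
The authors' fold enrichment (log axis) of overlapping single-block coding peaks in the 10 genes whose worse rank by fold was best, with A549/DDP in red and A549 in blue. Points are single values and lines join the lists; folds run from 14 (ZNF865, A549/DDP) to 127 (MT-ND2, A549/DDP).

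At the level of genes, 990 of 2607 genes with a single-block coding peak had one in both lists (38%, 36.1 to 39.9), 960 in A549/DDP alone (36.8%) and 657 in A549 alone (25.2%). With each list limited to its 13647 strongest peaks the numbers were 247, 188 and 181, so that those of A549/DDP alone and A549 alone were close. For genes with any peak the background was 69.5% in both, 18.9% in A549/DDP alone and 11.6% in A549 alone. For several-block coding peaks the shares were 45%, 32.1% and 22.9%. In 855 of the 990 genes (86.4%) the single-block peaks of both lists overlapped. Of the 960 genes with such a peak in A549/DDP alone, 480 had no A549 peak of any class (50%), and in 172 (17.9%) a peak of the class overlapped an A549 peak of another class. Of the 657 with one in A549 alone, 184 had no A549/DDP peak (28%), and in 296 (45.1%) a peak of the class overlapped an A549/DDP peak of another class.

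Among strong single-block coding peaks of A549/DDP that overlapped no A549 peak, the highest folds were 36.4 in PHF3, which encodes a PHD finger protein (chromosome 6, 64394721 to 64394990), and 34 in C19orf26, now CBARP (chromosome 19, 1229537 to 1230105). ZNF211 had a fold of 18.8 (chromosome 19, 58152382 to 58152741), ZBTB24 17.6 (chromosome 6, 109802317 to 109802617), and TBP, the TATA-binding protein gene, 13.5 (chromosome 6, 170870884 to 170871120). BNC2, a zinc finger gene, had 3 regions and a highest fold of 11.3 (chromosome 9, 16435932 to 16436200). The sterol-binding protein gene OSBP had 14.5 (chromosome 11, 59382780 to 59383109) and ANKRD36 10.2 (chromosome 2, 97911105 to 97911315), which has close copies, so that its assignment is uncertain. C19orf26, ZNF211, ZBTB24, TBP and BNC2 had no A549 peak of any class, while PHF3, OSBP and ANKRD36 had 1 or 2 elsewhere. The C19orf26 peak has the same fold and p as that of ZNF628.

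Among such peaks of A549, MUC5B stood first. This secreted airway mucin gene had 7 single-block regions with folds from 11.6 to 21.5 at their smallest p, between 1264128 and 1272700 on chromosome 11, and no peak of any class in A549/DDP. Its strongest peak covered 1140 bases (1271561 to 1272700), and the other 6 regions were weak. Some of their values recur in other genes. The region from 1264128 has the fold and p of an NSD1 region in A549, and that from 1267215 those of a ZNF628 region. C6orf141 had a fold of 17.3 (chromosome 6, 49518678 to 49519094), SPTBN4, a spectrin gene, 14.5 (chromosome 19, 41062940 to 41063179), and RGS3, a regulator of G protein signalling, 13.2 (chromosome 9, 116346214 to 116346544). DUSP16, a phosphatase gene of MAP kinases, had 8.76 (chromosome 12, 12630568 to 12630807) and MANSC1 8.43 (chromosome 12, 12483219 to 12483458). These 5 genes also had no A549/DDP peak. KLHL22, an adaptor of a cullin ubiquitin ligase (8.67, chromosome 22, 20819314 to 20819551), and the pseudokinase gene SGK223 (6.96, chromosome 8, 8234097 to 8234456) had 1 elsewhere.

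Gene groups differed widely in how many members carried a single-block coding peak, read against 32.8% of all 7957 genes with a peak. Zinc finger genes of the C2H2 type, DNA-binding factors that usually carry their finger array in 1 last exon, had one in 172 of 266 (64.7%, 58.6 to 70.4). A several-block coding peak was found in 26 of these 266 (9.77%), against 25.9% of all genes. The single-block peak was in both lists for 75, in A549/DDP alone for 76 and in A549 alone for 21. Over all genes with such a peak these shares were 38%, 36.8% and 25.2%. Fewer of the zinc finger genes had any peak in A549 (190) than in A549/DDP (244). The highest folds among strong peaks were in ZNF628 (34, and 19.8 in a weak A549 peak), ZNF503 (28.7 and 16.5) and ZNF865. Many members have close paralogs, and peaks in their repeated finger sequence may be shared between them.

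SOX, FOX and HOX factor genes showed the same contrast, with a single-block coding peak in 25 of 49 (51%) and a several-block one in 5 (10.2%). HOXA3 had folds of 5.86 and 19.8 on chromosome 7 (27149741 to 27150010 and 27149760 to 27150059), the A549/DDP one weak. Adaptors of ubiquitin ligases with an F-box, a kelch or a BTB domain had a single-block peak in 33 of 58 (56.9%) and a several-block one in 8. FBXW7, which marks cyclin E and MYC for degradation, had folds of 17.6 in A549/DDP (chromosome 4, 153332495 to 153332881) and 11.6 in a weak A549 peak inside it (153332606 to 153332752). FBXO5, an inhibitor of the anaphase-promoting complex, had one in A549/DDP alone (fold 6.3).

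Chromatin genes carried both kinds of coding peak. A single-block coding peak was listed for 25 of 33 histone methyltransferase, demethylase and Polycomb or Trithorax genes (75.8%), and for 26 of 34 chromatin remodeller and coactivator genes (76.5%). A several-block peak was listed for 20 and 26 of them. The lysine methyltransferase gene KMT2B had folds of 12.9 and 8.54 (chromosome 19, 36210902 to 36211731 and 36210759 to 36211836), and the demethylase gene KDM6B 7.84 and 17.6 (chromosome 17). NSD1, a histone H3 lysine methyltransferase gene, had 4 regions in each list, of which 3 in A549/DDP overlapped A549 peaks. ARID1A, a subunit of the SWI/SNF remodelling complex, had folds of 23.5 and 17.8 at the same start (chromosome 1, 27022925 to 27023435 and to 27023345). A549 also had an ARID1A region of 1394 bases (27105836 to 27107229) that overlapped A549/DDP peaks of other classes. The remodeller genes CHD6 (11.3 and 4.82) and CHD9 (9.15 and 5.16, the latter weak) had overlapping peaks in both lists.

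Of 22 homologous recombination and Fanconi anaemia genes with any peak, all 22 had one in A549/DDP and 11 in A549. A single-block coding peak was in both lists for BRCA1, in A549/DDP alone for 11 and in A549 alone for 0, where 36.8% of all genes with such a peak had it in A549/DDP alone. These were BLM, BRCA2, BRIP1, FANCD2, NBN, PALB2, RAD52, RBBP8, SLX4, TP53BP1 and XRCC2, named after their values were seen. BRCA1 was the only gene of the list with a strong one, with 1 region in each list and folds of 4.27 (chromosome 17, 41245321 to 41245621) and 2.07 (41245441 to 41245591, weak). BRCA2 had weak regions of 178 and 61 bases on chromosome 13. The list's excess in A549/DDP was already known from these data and is no independent support. RIF1, a factor of double-strand break repair choice, had a strong peak in both lists (13.2 and 3.85, chromosome 2), with 4 regions in A549/DDP and 3 in A549.

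Genes of mitosis and the centrosome had one in 15 of 29 (51.7%), 12 of them in both lists. This list was put together to include genes with large exons, so its share is not to be read against the background. NUMA1, a spindle pole protein gene, had a region of 1020 bases in A549/DDP (chromosome 11, 71725994 to 71727013, fold 5.02) and one of 781 bases with the same lower end in A549 (71725994 to 71726774, fold 5.49). PCNT, the pericentrin gene, had its highest folds, 5.63 and a weak 10.7, at different sites. A weak pair overlapped elsewhere (47836235 to 47836415, fold 3.21, and 47836325 to 47836475, fold 5.37, chromosome 21). Hippo pathway genes had one in 11 of 20 (55%, 31.5 to 76.9, an interval that includes the 32.8% background). Among them were the kinase gene LATS2 (9.97, and 13.2 in a weak A549 peak), the angiomotin gene AMOTL2 (9.38, and 5.23 weak) and the cadherin gene FAT1. FAT1 had overlapping strong peaks with folds of 3.82 (chromosome 4, 187509961 to 187510314) and 4.44 (187509777 to 187510257), a second overlapping pair (3.4 and 3.72, both weak), and its highest fold, 6.14, in an A549/DDP peak outside any A549 peak. Of Notch, Wnt and Hedgehog genes 15 of 27 had one (55.6%). GLI2, a Hedgehog transcription factor, had 24.8 in A549 and a weak 6.03 at the same end in A549/DDP. BCL9L, a Wnt coactivator, had a peak of 1558 bases in A549/DDP (fold 8.17) that overlapped an A549 peak of another class. The receptor gene NOTCH3 had 390 bases in A549 (fold 6.7) and no A549/DDP peak.

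Receptor kinase, RAS and PI3K genes had one in 10 of 28 (35.7%), close to the background. IRS1, an insulin receptor adaptor with a large first exon, had folds of 7.82 and 8.74 at overlapping sites (chromosome 2, 227660402 to 227660731 and 227660372 to 227660791). Immediate early genes had one in 14 of 34 (41.2%, 24.6 to 59.3), with EGR1 (5.22 and 5.06), KLF6 (4.04 and 5.01) and ZFP36 (4.55 and 3.81) strong in both lists. DNA damage checkpoint genes had one in 7 of 15 (46.7%, 21.3 to 73.4). Both intervals include the 32.8% background. The checkpoint genes had it in both lists for 1, in A549/DDP alone for 2 and in A549 alone for 4. These are too few to set against the 38%, 36.8% and 25.2% of all genes with such a peak. Epithelial genes with one were FOXA1, the desmoplakin gene DSP (5.26 and 3.42), TJP1 (2.78 and 2.99) and MUC1 in both lists, and FOXA2 in A549 alone.

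Other groups had lower shares. Cytosolic ribosomal protein genes had a single-block coding peak in 7 of 61 (11.5%, 4.74 to 22.2) but a coding and 3′ UTR peak in 49 (80.3%). Their folds were low, as in RPS2 (1.56), RPL6 (1.5) and RPL13 (1.38) in A549, all overlapping A549/DDP peaks of other classes, and processed pseudogenes make their assignment uncertain. Nuclear genes of the respiratory chain and ATP synthase had one in 2 of 45 (4.44%), NDUFS6 (1.43 and 1.67) and NDUFV3. NRF2 and glutathione genes had one in 3 of 27 (11.1%), among them NFE2L2, which encodes NRF2 itself (2.69 in A549/DDP, 1.81 in a weak A549 peak). Solute carrier genes had one in 24 of 110 (21.8%), such as the mitochondrial carrier gene SLC25A28 (3.24 and 3.76). Protocadherin genes had one in 2 of 23, each in both lists, among them PCDH9 (4.92, and 5.27 weak). All 23 had a peak of any class in A549/DDP, but only 2 in A549. Histone genes had a single-block coding peak in 2 of 12 (interval 2.09 to 48.4%). Platinum and drug transport genes had one in 2 of 11 (interval 2.28 to 51.8%), the anion channel subunits LRRC8A and LRRC8D. The intervals of the histone and transport genes include the 32.8% background.

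**Figure D5:**
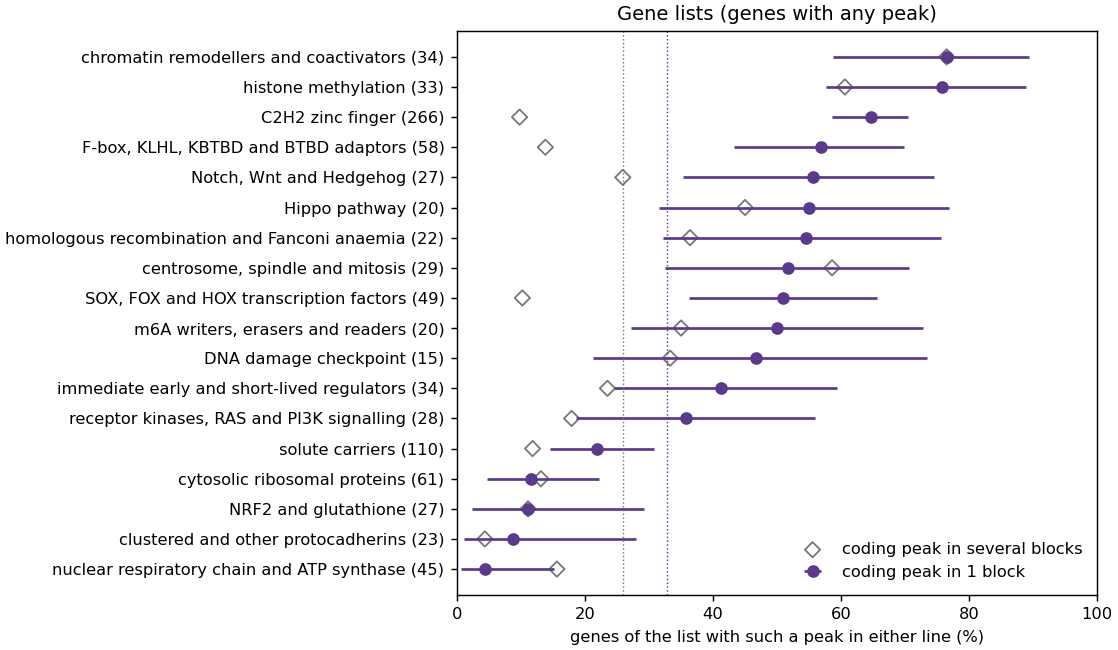
Share of genes with a single-block coding peak in either line (circles, with exact 95% binomial intervals) and with a several-block coding peak (diamonds) in gene lists with at least 15 genes that have any peak, whose number is in parentheses. Dotted lines mark the shares over all genes with a peak, 32.8% and 25.9%; zinc finger genes stand at 64.7% and 9.77%, and ribosomal protein genes at 11.5% and 13.1%.

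Of the m6A machinery itself, 10 of 20 genes with any peak had a single-block coding peak (50%, 27.2 to 72.8, an interval that includes the 32.8% background). ALKBH5, the demethylase, had by far the strongest, with folds of 47.2 in A549/DDP (chromosome 17, 18087583 to 18088001) and 18.6 in A549 (18087613 to 18087911). CBLL1, a member of the methyltransferase complex, had overlapping peaks with folds of 4.94 and 3.41, the latter weak. The complex members RBM15 and KIAA1429, now VIRMA, and the reader YTHDF1 had weak peaks in both lists. METTL16 (6.06) and ZC3H13 (5.78) had strong ones in A549 alone, each overlapping an A549/DDP peak of another class, and WTAP a weak one. METTL3, the catalytic subunit (2.12), and the reader YTHDF3 (3.78) had weak ones in A549/DDP alone that overlapped no A549 peak.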

How the data were processed

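Per the labels' protocols, m6A-carrying fragments were enriched with an antibody and, like the input, made into stranded libraries. The submitters' processing notes name HISAT2 and hg19. Which caller, threshold and library scaling gave the peaks is not given in the sources used. The deposited fold of a peak is a linear ratio and the deposited p-value the authors' own, with no word on adjustment. The deposited lists had 33465 rows for A549/DDP and 28601 for A549. Positions are on hg19 and count from 1.

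Rows of identical place, strand and block structure became 1 distinct peak, with its smallest p, highest fold and all region labels. Regions are peaks joined by shared exonic bases. Python 3.11.15 and scipy 1.17.1 were used. The overlap code was tested on simulated data: 2966 of 4910 A549 peaks of the class were shifted in part and 2966 were found, with 0 of 1944 moved peaks wrongly called.

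The class, gene lists and rules were chosen with earlier results of these data known, and the zinc finger and respiratory chain lists were corrected for a wrongly matched symbol each after the files were seen. The naming rule took, among strong peaks on primary chromosomes, the 10 genes with overlapping peaks in both lists best by worse rank of fold, the 8 per list highest by fold without overlap, the 5 longest, the 5 with most bases, up to 3 per gene list, and all m6A writers, erasers and readers. Gene names are those of the lists. Sequences of the peaks were not analysed here. Alternatives changed the overlap, strength, strand, redundancy, chromosomes and labels.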

Additional observations from a re-analysis of the deposited data

How the results depend on the processing

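No paired analysis was possible because each line had 1 library of each kind. Merging left 2598 and 2159 regions of the class in A549/DDP and A549. The share of single-block coding peaks among all peaks was 19.7% and 21.6% among peaks of fold 5 or more, 9.44% and 8.16% among strong peaks, and 17.6% and 16.7% with 1 peak per merged region. Their median fold was 4.11 and 4.44 with 1 peak per region, and 4.87 and 4.86 among strong peaks, where the lists hardly differed. The share that overlapped the other list was 38.9% and 64% with at least 50% of the peak covered, 32% and 42.5% with at least 50% of both peaks, 59.5% and 75.9% with each list limited to its 13647 smallest p-values, and 49% and 70.4% for merged regions, lower in A549/DDP each time. The share that overlapped a peak of the same class was 31.8% and 46.6% with at least 50% of the peak covered. Shares over all distinct peaks are not given for these settings, so the class cannot be read against a background there. Genes with a single-block coding peak in both, in A549/DDP alone and in A549 alone numbered 364, 533 and 415 among peaks of fold 5 or more. They numbered 247, 188 and 181 with the lists of equal size, where the numbers for A549/DDP alone and A549 alone were close. The cause of these changes was not tested beyond what each setting removes. Ignoring strand, leaving out alternate contigs and taking the label of 1 row moved no value past its interval or by over 1.5 times. The unknown depth limits every statement on weak peaks.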
